A study of Mus musculus with 12 samples.

Results

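A set of 30 mouse genes of the Sertoli cell and of the peptide hormones that act in the gonad were followed in RNA sequencing of F1 mouse testes. They were chosen by gene symbol, and all 30 of 30 were found among the 20788 genes of the deposited table. By role they are 9 transcription regulators, 9 hormones, growth factors or binding proteins, 3 receptors, 5 secreted or lysosomal proteins and 4 structural or other genes. The 9 transcription regulators include Mro, whose role as one was not checked here. The 12 libraries fall into 4 groups of 3. The overexpression group is labelled with virus that overexpresses lncRNA8276, a long non-coding RNA given only this code in the labels. The knockdown group is labelled with virus for its inhibition. All 12 sample titles begin with F1, and whether these animals themselves or an earlier generation received the virus was not established here. The groups labelled 5NC and 3NC, called control_5NC and control_3NC here, serve as the controls of overexpression and of knockdown, a pairing read from the order in which the design text names the groups. All animals carry the strain label "IRC mouse", the tissue was whole testis and the starting material was total RNA. The labels give neither the age of the animals nor the promoter or the cells that the virus reached. Nor do they tell if each library is a different animal, so the p-values measure the spread between these libraries, which may be technical. Expression of lncRNA8276 itself was not analysed here, and no label was checked against it.

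Sertoli cells are the somatic nurse cells of the seminiferous tubule. Transcription factors such as Sox9, Wt1 and Gata4 set and keep their identity, and follicle-stimulating hormone and testosterone regulate them. They secrete inhibin B, which lowers the release of follicle-stimulating hormone from the pituitary, and, mainly before puberty, anti-Müllerian hormone. They also supply germ cells with growth factors, iron carriers and proteases. Whole testis RNA is mostly from germ cells, so Sertoli transcripts are a minor part of each library, and fewer Sertoli cells cannot be told apart from less RNA per cell.

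Library totals ran between 13485479 and 15771655 estimated counts, and 3 libraries (overexpression replicate 2 and control_5NC replicates 2 and 3) were at or below 13847277 while the other 9 were at or above 15252025. Markers of other cells stood out in 4 libraries. In control_3NC replicate 2 the 11 leukocyte genes summed to 494.7 normalised CPM (counts scaled by library size), against 93.4 to 129.7 elsewhere, and 9 interferon-response genes summed to 318.0 against at most 22.4. The 10 epididymis and duct genes summed to 436.1 CPM in knockdown replicate 1 and 367.3 and 216 in control_5NC replicates 2 and 3. They summed to 144.9 in control_3NC replicate 2, a narrow margin, against 67.4 to 129.3 in the other 8 libraries. Of the 67.4 CPM, in knockdown replicate 3, Aqp9 alone made up 64.7. Crisp1, another of the 10, was at 62.0 CPM in control_3NC replicate 2, against 37.4 in overexpression replicate 2 and 32.6 in control_3NC replicate 1. Of the 30 members, 10 had their highest level of the 12 libraries in control_3NC replicate 2, as did 21.8% of all genes tested, and 6 had their lowest there, as did 16.8%.

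Every member had counts in every library, the defining Sertoli genes Sox9, Amh and Fshr included. On the deposited per-length scale, which behaves like RPKM (reads scaled by gene length and library size) although its header does not name the unit, 9 members averaged over 40 and 4 averaged under 1. Clu, the secreted chaperone clusterin, led at 373.2 ± 52.4 (SD over 12 libraries), followed by Ctsl, the lysosomal protease cathepsin L, at 170.9 ± 46.0, and Aard at 98.1 ± 10.1. Amhr2, Inha, Vim, Serpina5, Defb36 and Tsx followed, with means between 68.6 and 40.1. Next came Nr5a1 at 12.9. At the low end stood Amh at 0.969, Fst at 0.5, Gdnf at 0.477 and Inhba at 0.128. The ranges of neighbours in this order overlapped in 25 of 29 pairs; the exceptions were Ctsl above Aard, Aard above Amhr2, Tsx above Nr5a1 and Sox9 above Fshr. Sox8, Nr5a1, Inhba, Fst, Dhh and Ctsl overlap an annotated gene on the opposite strand, and without strand information the reads of such pairs cannot be told apart.

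**Figure D1:**
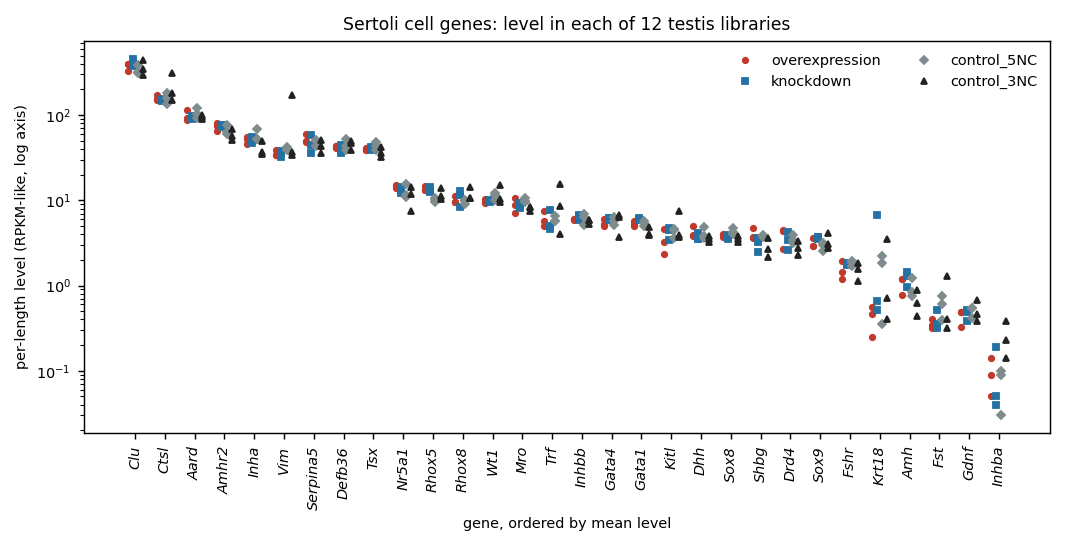
Per-length level (RPKM-like, log axis) of each of the 30 genes in each of the 12 libraries, 1 point per library, ordered by mean. Levels run from 373.2 for Clu to 0.128 for Inhba, and single high points stand out for Vim (control_3NC) and Krt18 (knockdown and both controls).

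Library-to-library spread within groups was like that of other genes, with a median coefficient of variation of 14.5% over members and 14.4% over genes tested. Gata1 varied least at 5.59% and Sox8 at 7.15%, while Krt18 at 134.1%, Vim at 77.6% and Fst at 53.0% varied most. These uneven genes are the ones whose levels are taken up library by library below.

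**Figure D2:**
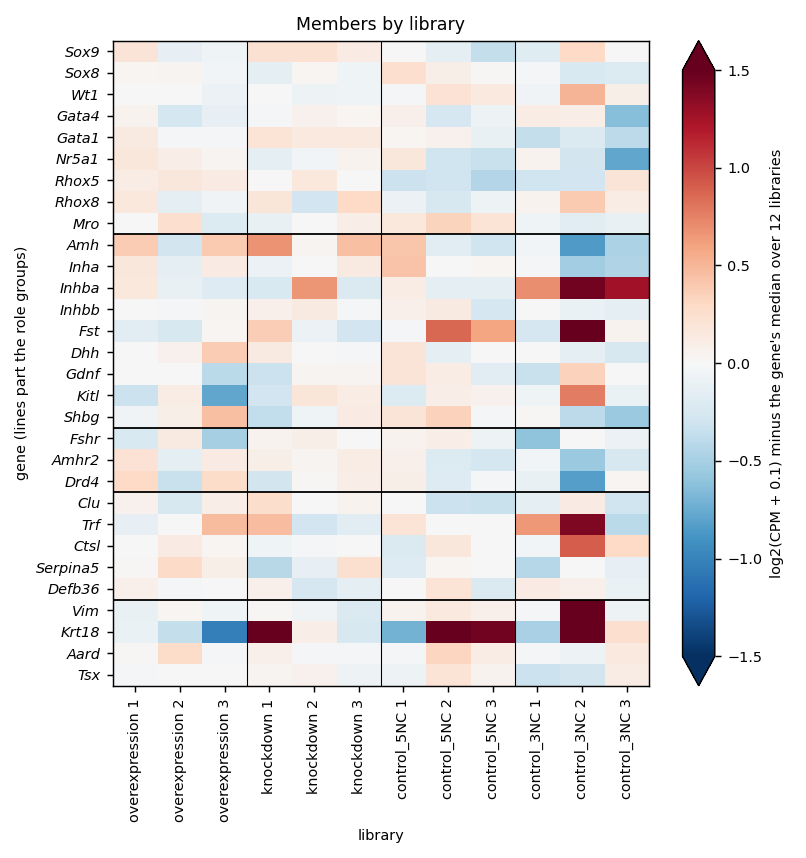
Each member's log2(CPM + 0.1) minus its median over the 12 libraries, genes in rows by role and libraries in columns by group, with the colour scale ending at 1.5 either way. Control_3NC replicate 2 is the column with the most strong colours, and Krt18 is high in 4 libraries of 3 groups.

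The question of the study, as the design text gives it, is what overexpression or inhibition of lncRNA8276 does to the testis. No member passed an adjusted p of 0.05 in overexpression against control_5NC or in knockdown against control_3NC. Of all genes, 78 of 16395 genes (0.476%) passed in the first comparison and 3 (0.0183%) in the second, by edgeR's quasi-likelihood test with Benjamini-Hochberg adjustment. DESeq2 and limma-voom also called none of the 29 members tested. In overexpression DESeq2 gave no adjusted p for Krt18, Gdnf, Amh and Fst, which therefore could not pass there. An unadjusted p under 0.05 was reached by 1 of 29 members in overexpression, against 15.3% of all genes tested, and by 5 of 29 in knockdown, against 8.69%. The median log2 fold change of the members was 0.00401 in overexpression (all genes -0.0122) and 0.137 in knockdown (all genes -0.0255). For 26 of 29 members in overexpression and 24 of 29 in knockdown the 95% interval of the fold change lay within 2-fold either way (80.7% and 80.8% of all genes), so larger changes of those members lie outside the intervals. Intervals were wider for the remaining members.

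No role group had a member that passed in either comparison. The 9 transcription regulators had a median log2 fold change of 0.0358 in overexpression and 0.123 in knockdown, and their summed level was 155.4 to 171.2 CPM in overexpression against 151.4 to 168.1 in control_5NC, and 159.4 to 166.8 CPM in knockdown against 136.1 to 168.0 in control_3NC. The 8 hormones, growth factors and binding proteins tested had medians of -0.0592 and 0.156, and the 3 receptors 0.15 and 0.261. Medians of the 5 secreted or lysosomal proteins were 0.0692 and -0.134, and those of the 4 structural or other genes were -0.108 and 0.0704. Summed levels of each role group overlapped between construct and control in overexpression for 5 of 5 groups, and in knockdown for 4 of 5, the exception being the receptors at 141.8 to 148.3 CPM in knockdown against 94.0 to 132.4 in control_3NC, a sum that is mostly Amhr2.

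**Figure D3:**
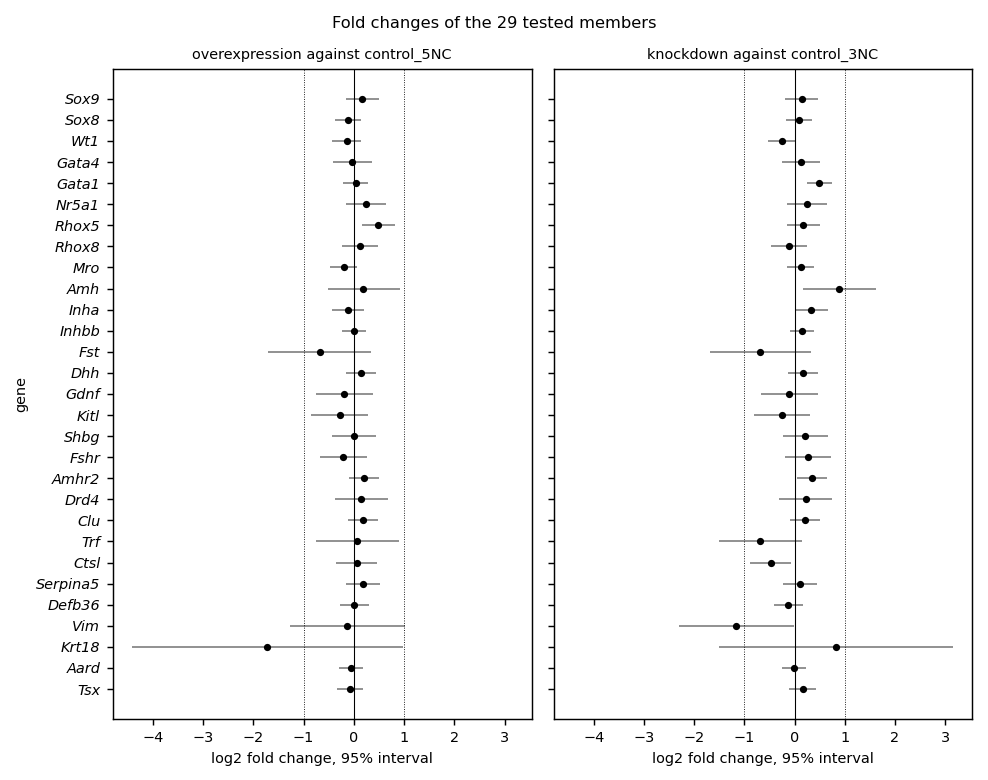
Log2 fold change of the 29 members tested, with 95% intervals, for overexpression against control_5NC (left) and knockdown against control_3NC (right). Dotted lines mark 2-fold either way, and the widest intervals belong to Krt18, Vim, Fst, Trf and Amh.

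Among the transcription regulators, Rhox5 had the lowest p in overexpression. It is an androgen-responsive homeobox gene on the X chromosome (positions 37804842 to 37808876, plus strand, mm10). It was at 9.26, 9.69 and 9.35 CPM in the overexpression libraries, against 6.85, 6.99 and 6.33 CPM in control_5NC. All 3 overexpression libraries lay above all 3 controls. It was the only member that did so, as 11.7% of all genes did. The log2 fold change was 0.49 ± 0.15 (SE), with an adjusted p of 0.147, and it lay between 0.45 and 0.51 under the other settings. Knockdown libraries had 8.56, 9.59 and 8.62 CPM, against 6.97, 7.01 and 9.87 CPM in control_3NC, where replicate 3 was the highest of all 12 libraries. Rhox8, its neighbour in the same homeobox cluster, was at 10.1 to 12.4 CPM in overexpression against 9.39 to 10.6 in control_5NC, and at 9.08 to 13.7 in knockdown against 11.6 to 14.7 in control_3NC.

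Gata1, a zinc-finger factor known from red cell development that Sertoli cells also express, had the lowest p in knockdown. Its levels were 11.1, 10.6 and 10.6 CPM in knockdown and 7.43, 8.2 and 7.3 CPM in control_3NC. The groups did not overlap, and the log2 fold change was 0.49 ± 0.12 (adjusted p = 0.559). In overexpression it was at 10.5, 9.4 and 9.42 CPM, against 9.74, 10 and 8.85 CPM in control_5NC, a log2 fold change of 0.04 ± 0.12. The 2 control groups themselves stood apart for this gene, since all 3 control_5NC libraries lay above all 3 of control_3NC. Among groups, control_3NC was the low one for Gata1. The 8 erythroid marker genes, which share Gata1 as a regulator, summed to 63.0 to 87.3 CPM in knockdown and 51.7 to 95.2 CPM in control_3NC. That sum hides opposite directions, since 3 of the 6 erythroid genes tested in knockdown had a positive log2 fold change. Hbb-bs averaged 4.45 CPM in knockdown and 11.1 CPM in control_3NC, and Hbb-b1 averaged 11.8 and 8.54 CPM. The part of red cells in the Gata1 values was not tested.

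The core identity factors differed by less. Sox9, which drives Sertoli differentiation, had log2 fold changes of 0.17 ± 0.15 in overexpression and 0.14 ± 0.15 in knockdown. Its close relative Sox8 had -0.12 ± 0.12 and 0.08 ± 0.12 in the same order. Gata4 had -0.03 ± 0.18 and 0.12 ± 0.18, with 1 low library, control_3NC replicate 3, at 12.6 CPM against 16.3 to 21.3 CPM elsewhere. Without that library its knockdown value was -0.08 ± 0.12. The nuclear receptor Nr5a1, which Leydig cells express too, was lowest in the same library at 22.7 CPM, against 31.0 to 43.9 CPM in the others. The 8 Leydig genes summed to 1087.4 CPM there, the second lowest after 962.9 CPM in knockdown replicate 1, and their part in the Nr5a1 value was not tested. Wt1, the zinc-finger factor that keeps Sertoli cells from losing their identity, was at 30.1, 28.5 and 28.6 CPM in knockdown and 29, 42.8 and 32.0 CPM in control_3NC. Its log2 fold change of -0.25 ± 0.13 was -0.07 ± 0.10 without control_3NC replicate 2.

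The hormone genes are led by the inhibin subunits. Inha encodes the alpha subunit of inhibin, and Inhbb the beta B subunit that it pairs with in inhibin B. Inha was at 75.3, 60.9 and 72.8 CPM in overexpression against 90.3, 67.6 and 68.5 CPM in control_5NC, and at 63.3, 66.6 and 73.4 CPM in knockdown against 66.1, 46.6 and 49.0 CPM in control_3NC. The groups overlapped in both comparisons, and the log2 fold changes were -0.12 ± 0.15 and 0.33 ± 0.15 (adjusted p = 0.794 and 0.559). Inhbb was among the steadiest genes, between 21.0 and 27.5 CPM in all 12 libraries, with log2 fold changes of 0.00 ± 0.11 in overexpression and 0.15 ± 0.11 in knockdown. On the per-length scale Inha exceeded Inhbb 7.71- to 9.26-fold in overexpression, 7.41- to 9.34-fold in knockdown, 7.63- to 10.57-fold in control_5NC and 6.28- to 8.25-fold in control_3NC. The ranges of each construct overlapped those of its control.

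Inhba, the beta A subunit of activin A, was too low for the test. Its counts were 3, 2 and 2 in overexpression, 2, 5 and 2 in knockdown, 3, 2 and 2 in control_5NC and 5, 10 and 8 in control_3NC. Control_3NC held the largest counts, and only knockdown replicate 2 reached its lowest library. The ratio of summed counts, scaled to library size, was 0.387 for knockdown over control_3NC (95% exact interval 0.158 to 0.869, counting error only) and 0.973 for overexpression over control_5NC (0.291 to 3.25). With no filter on low counts the fitted log2 fold change in knockdown was -1.33 ± 0.54, with an adjusted p of 0.592.

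Fst encodes follistatin, which binds and neutralises activin. It was at 0.854, 0.808 and 0.995 CPM in overexpression, 1.28, 0.908 and 0.777 CPM in knockdown, 0.943, 1.84 and 1.51 CPM in control_5NC and 0.796, 2.94 and 1.01 CPM in control_3NC. The 4 highest libraries were the same 4 that were highest for the epididymis and duct genes. Its log2 fold changes were -0.68 ± 0.47 in overexpression and -0.68 ± 0.46 in knockdown. The knockdown value was 0.13 ± 0.37 without control_3NC replicate 2, and the overexpression value was -0.08 without the 4 libraries high in leukocyte or epididymis genes. Leaving out those 4 drops the control_5NC libraries at 1.84 and 1.51 CPM and keeps the low one.

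Amh, the anti-Müllerian hormone gene, had 12 to 37 counts per library. Its levels were 2.36, 1.49 and 2.01 CPM in knockdown, against 1.39, 0.751 and 1.01 CPM in control_3NC. The knockdown libraries all lay above the control libraries, by a narrow margin. The log2 fold change was 0.89 ± 0.33 (adjusted p = 0.559), and 0.69 without control_3NC replicate 2. In overexpression it was at 1.91, 1.17 and 1.92 CPM, against 1.95, 1.27 and 1.15 CPM in control_5NC, and the groups overlapped.

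Growth factors and binding proteins gave small differences. Gdnf, which sustains spermatogonial stem cells, had log2 fold changes of -0.19 ± 0.26 in overexpression and -0.11 ± 0.26 in knockdown, the second at 0.10 ± 0.27 without control_3NC replicate 2. Dhh, the hedgehog ligand that Sertoli cells send to Leydig and peritubular cells, had 0.14 ± 0.14 and 0.17 ± 0.14. Shbg, which encodes the androgen-binding protein of the testis, had 0.00 ± 0.20 and 0.21 ± 0.21. Kitl, the ligand of the receptor Kit on spermatogonia, had -0.28 ± 0.26 and -0.25 ± 0.26. The Kitl level in control_3NC replicate 2 was 38.1 CPM, against 13 to 25.3 CPM in the other libraries, and without that library its knockdown value was 0.09 ± 0.22.

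The receptor genes Amhr2 and Fshr lay higher in every knockdown library than in every control_3NC library. Amhr2, the type II receptor of anti-Müllerian hormone, was at 136.4, 131.8 and 138.2 CPM in knockdown and 124.6, 86.9 and 108.7 CPM in control_3NC. The log2 fold change was 0.34 ± 0.14 (adjusted p = 0.559), and 0.22 without control_3NC replicate 2. In overexpression it was at 148.9, 116.6 and 140.1 CPM, against 135.4, 111.1 and 106.3 CPM in control_5NC, with a log2 fold change of 0.20 ± 0.14 (adjusted p = 0.548). Fshr, the receptor of follicle-stimulating hormone, was at 4.02, 4.15 and 3.89 CPM in knockdown and 2.52, 3.88 and 3.65 CPM in control_3NC. Its log2 fold change was 0.26 ± 0.21, and 0.09 without control_3NC replicate 1, and the groups were only just apart. Drd4, a dopamine receptor that Sertoli cells express, had 0.15 ± 0.24 in overexpression and 0.22 ± 0.24 in knockdown, the second at -0.01 without control_3NC replicate 2.

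The 250 bases upstream of the start of Amhr2 and of Fshr are printed because both lay above control_3NC in every knockdown library and because their annotated starts matched the RefSeq table, which held 19 of the 30 members. Sequence is from RefSeq, build GRCm38.p6, 5′ to 3′ on the strand of the gene. Amhr2 spans chr15:102445117-102445366 on the plus strand and Fshr spans chr17:89200676-89200925 on the minus strand. Capitals mark AGGTCA, the core element recognised by nuclear receptors such as Nr5a1, GATA (TATC where it lies on the opposite strand), the element of Gata factors, and CACGTG, an E-box.
Amhr2: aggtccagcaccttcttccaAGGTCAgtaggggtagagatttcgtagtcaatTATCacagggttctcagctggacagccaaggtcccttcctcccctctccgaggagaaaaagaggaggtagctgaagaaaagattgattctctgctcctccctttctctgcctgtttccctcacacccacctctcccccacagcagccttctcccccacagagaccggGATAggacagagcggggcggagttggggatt
Fshr: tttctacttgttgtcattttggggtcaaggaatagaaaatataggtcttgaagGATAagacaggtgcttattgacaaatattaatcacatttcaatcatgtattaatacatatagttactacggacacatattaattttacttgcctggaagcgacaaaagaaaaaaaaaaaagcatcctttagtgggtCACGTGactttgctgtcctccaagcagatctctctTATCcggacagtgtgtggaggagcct
The Amhr2 window held AGGTCA 230 bases upstream of the start, and GATA at 31 bases and, on the opposite strand, at 198 bases upstream. The Fshr window held GATA at 197 bases and, on the opposite strand, at 26 bases, and CACGTG at 61 bases upstream. Searched on both strands with no overlap between these motifs, AGGTCA was found in 14.0%, GATA in 53.6% and CACGTG in 6.02% of 32851 windows of the same length. A match describes the letters only.

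**Figure D4:**
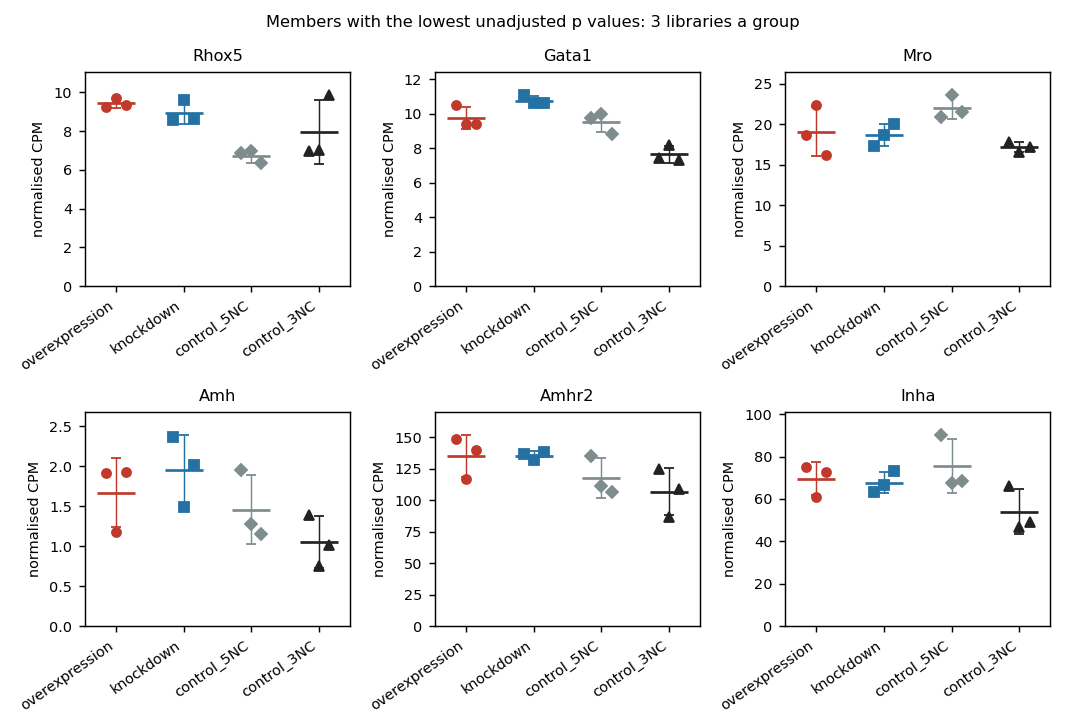
Normalised CPM of Rhox5, Gata1, Mro, Amh, Amhr2 and Inha in each library, with 1 point per library and lines for the mean and SD of 3 libraries per group. Rhox5 in overexpression (9.26 to 9.69) lies above control_5NC (6.33 to 6.99), and Gata1 in knockdown (10.6 to 11.1) above control_3NC (7.3 to 8.2).

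Across the knockdown comparison, 4 of 29 members (Gata1, Amh, Fshr and Amhr2) were higher in all 3 knockdown libraries than in all 3 of control_3NC, against 6.48% of all genes, and 0 were lower, against 6.57%. In overexpression 1 member, Rhox5, was higher in that way and 1, Vim, was lower, against 10.3% of all genes for the lower direction.

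Among the secreted proteins, Clu was at 677.4, 545.6 and 692.1 CPM in overexpression and 649.2, 517.4 and 510.7 CPM in control_5NC, with a log2 fold change of 0.19 ± 0.14. It was at 774.2, 642.6 and 670.2 CPM in knockdown and 589.8, 706.2 and 523.5 CPM in control_3NC, with 0.20 ± 0.14. Both sets of groups overlapped. Serpina5, a protease inhibitor, had 0.18 ± 0.16 and 0.10 ± 0.16, and the beta-defensin Defb36 had 0.01 ± 0.13 and -0.13 ± 0.13.

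Trf, the iron carrier transferrin, and Ctsl were uneven in control_3NC. Trf was at 16.9, 10 and 11 CPM in knockdown and 19.3, 32.5 and 9.2 CPM in control_3NC, and its log2 fold change of -0.69 ± 0.37 was -0.17 ± 0.30 without control_3NC replicate 2. Ctsl was at 226.9, 233.1 and 236.5 CPM in knockdown and 231.8, 447.2 and 292.6 CPM in control_3NC, and its log2 fold change of -0.48 ± 0.19 (adjusted p = 0.559) was -0.18 ± 0.12 without that library. Ctsl is also the 1 member with fractional counts, so its reads may be shared with a copy elsewhere, and macrophages express it strongly. The leukocyte sum of control_3NC replicate 2 was the highest of the 12, as given above, and its part in these values was not tested.

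Vim, the intermediate filament vimentin, is expressed by many cells besides Sertoli cells. It was at 64.0, 60.9 and 54.7 CPM in knockdown and 62.7, 277.9 and 60.2 CPM in control_3NC. A single library carried the difference. The log2 fold change was -1.16 ± 0.51 (adjusted p = 0.559), and -0.04 ± 0.091 without control_3NC replicate 2. In overexpression all 3 libraries, at 58.7, 64.8 and 60.7 CPM, lay below the 65.8, 70.2 and 66.7 CPM of control_5NC, with a log2 fold change of -0.14 ± 0.51, whose SE reflects the spread over all 12 libraries.

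Krt18, a keratin of immature Sertoli cells and of simple epithelia, was the most uneven member. It was at 0.723, 0.587 and 0.332 CPM in overexpression, 8.62, 0.843 and 0.648 CPM in knockdown, 0.44, 2.75 and 2.3 CPM in control_5NC and 0.531, 4.19 and 0.947 CPM in control_3NC. The 4 libraries above 2 CPM, chosen after their values were seen, were the 4 highest for the epididymis and duct genes. Krt18 and Fst were the 2 members higher in all 4 of these libraries than in all 8 others, as were 0.872% of genes tested. For Krt18 this was fixed by picking the libraries above 2 CPM, so that share is no measure for it. The log2 fold change of Krt18 in overexpression was -1.72 ± 1.2 (adjusted p = 0.572), and it was 0.32 without those 4 libraries. That fit drops control_5NC replicates 2 and 3, at 2.75 and 2.3 CPM, and keeps the low one. In knockdown the log2 fold change of Krt18 was 0.82 ± 1.0, and -1.34 without knockdown replicate 1. The part of epididymal tissue in the Krt18 and Fst values was not tested.

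**Figure D5:**
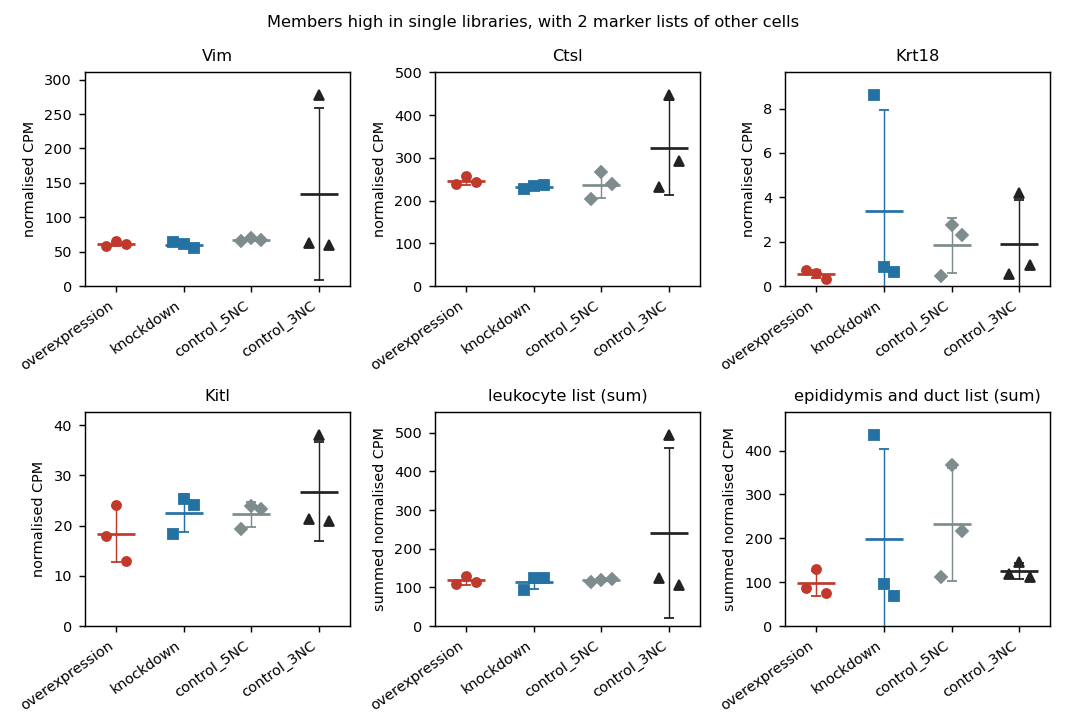
Normalised CPM of Vim, Ctsl, Krt18 and Kitl, and the summed CPM of the leukocyte and of the epididymis and duct lists, by library, with mean and SD of 3 libraries per group. Control_3NC replicate 2 is the high point for Vim (277.9), Ctsl (447.2), Kitl (38.1) and the leukocyte list (494.7).

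Aard and Tsx, further Sertoli-expressed genes, had log2 fold changes of -0.05 ± 0.11 and -0.08 ± 0.12 in overexpression and of -0.02 ± 0.11 and 0.16 ± 0.12 in knockdown. Their 95% intervals were among the narrowest of the set.

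The 2 control groups were also compared with each other. None of the 29 members passed in control_5NC against control_3NC, where 40 of 16395 genes (0.244%) did, by edgeR's quasi-likelihood test, and DESeq2 and limma-voom called none of them. An unadjusted p under 0.05 was reached by 6 members, against 12.9% of all genes: Inha, Mro, Gata1, Shbg and Sox8 were at positive fold changes and Ctsl at a negative one. The control_5NC libraries lay wholly above control_3NC for 4 members (Sox8, Gata1, Mro and Inha), against 7.02% of all genes, and wholly below for Rhox8, against 6.17%. Inha gave the lowest p, with a log2 fold change of 0.49 ± 0.15 (adjusted p = 0.244). Gata1 was at 0.32 ± 0.12 (adjusted p = 0.311). Shbg was at 0.48 ± 0.21 (adjusted p = 0.356), and its 2 groups overlapped. These comparisons share control libraries with the construct comparisons above.

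Mro, a gene expressed in developing testis, was at 20.9, 23.6 and 21.5 CPM in control_5NC and 17.8, 16.5 and 17.2 CPM in control_3NC, with a log2 fold change of 0.36 ± 0.12 (adjusted p = 0.278). In the 3 libraries with the lowest totals, of which 2 are control_5NC, it was at 21.5 to 23.6 CPM, against 16.2 to 20.9 CPM in the other 9. A term for those 3 libraries gave 0.20 for Mro and 0.70 for Inha (adjusted p = 0.411 and 0.107). In overexpression Mro was at 18.7, 22.3 and 16.2 CPM against the control_5NC values, with a log2 fold change of -0.20 ± 0.12 (adjusted p = 0.476). The low library total was partly confounded with control_5NC, and its part in the Mro values was not tested beyond that term.

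Whether overexpression and knockdown differed in their effect on a member was tested as the difference of the 2 fold changes. None of the 29 members passed by edgeR's quasi-likelihood test, DESeq2 or limma-voom, against 3 of all genes in edgeR (0.0183%), and 1 member had an unadjusted p under 0.05 (6.73% of all genes). That member was Gata1, at -0.46 ± 0.17 (adjusted p = 0.655), with the larger fold change in knockdown. Inha (-0.45 ± 0.21), Ctsl (0.54 ± 0.26) and Mro (-0.32 ± 0.17) followed, with adjusted p of 0.741, 0.741 and 0.76. The Ctsl value was 0.24 ± 0.16 without control_3NC replicate 2.

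With both constructs set against both controls, 6 libraries against 6, none of the 29 members passed by edgeR's quasi-likelihood test, against 43 of all genes (0.262%). DESeq2 and limma-voom called none either, but DESeq2 gave no adjusted p for Krt18, Gdnf, Fshr, Amh and Fst, which therefore could not pass. In edgeR 4 members had an unadjusted p under 0.05 (17.8% of all genes). Gata1 was at 0.26 ± 0.083 (adjusted p = 0.16), Rhox5 at 0.33 ± 0.11 (0.171), Amhr2 at 0.27 ± 0.096 (0.192) and Amh at 0.54 ± 0.23 (0.258). Wt1 came next and was negative, at -0.2, and at -0.25 to -0.04 under other settings. No member had groups without overlap, which 0.329% of genes showed in the higher and 0.488% in the lower direction. Without the 4 libraries high in leukocyte or epididymis genes, Amhr2 was at 0.11 (adjusted p = 0.894) and Amh at 0.17 (0.945). Rhox5 was the 1 member that passed under any other setting: without control_3NC replicate 3 its edgeR log2 fold change was 0.42 and its adjusted p was 0.0391. That control library held the highest Rhox5 level of all, 9.87 CPM, so leaving it out lowers the control mean.

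The other genes of the same pathways were described by their counts. Their lists were chosen with earlier results of these data known, so the shares of all genes are no test of these lists. Of 23 other Sertoli genes tested, 1 passed in overexpression against control_5NC (0.476% of all genes) and 0 in knockdown against control_3NC (0.0183%), with medians of -0.0546 and 0.015. The gene was Cst9, a cystatin of Sertoli cells, at 49.1, 45.5 and 45.8 CPM in overexpression and 8.04, 11.8 and 10.4 CPM in control_5NC. The log2 fold change was 2.22 ± 0.38 (adjusted p = 0.0449). Its level was 41.1, 22.9 and 73.7 CPM in knockdown and 40.9, 39.7 and 66.1 CPM in control_3NC, so control_5NC was the low group. Cst9 also passed with DESeq2 (adjusted p = 3.2e-08) and limma-voom (0.0466). It did not pass in any of the 6 fits that left out 1 library of the comparison (log2 fold change 2.07 to 2.35, adjusted p 0.0504 to 0.222) or with a term for the low library totals (0.0929). Of 21 genes of activin, inhibin, anti-Müllerian hormone and follicle-stimulating hormone signalling, 0 passed in either comparison, with medians of -0.0641 in overexpression and -0.0663 in knockdown. Smad1, a signal carrier of the bone morphogenetic and anti-Müllerian branch, had the lowest p there, at 17.3, 19.2 and 15.9 CPM in overexpression and 22.2, 21.2 and 23.7 CPM in control_5NC (log2 fold change -0.36 ± 0.11, adjusted p = 0.139). Smad1 was at 19.0, 18.2 and 17.9 CPM in knockdown and 16.5, 18.8 and 19.3 CPM in control_3NC, so control_5NC was the high group. Of 21 receptors and targets of Sertoli ligands, 0 passed either, with medians of -0.0976 and 0.0169. Etv5, a transcription factor downstream of Gdnf in spermatogonial stem cells, was at 17.5, 17 and 14.6 CPM in overexpression. In control_5NC it was at 20.3, 20 and 20.6 CPM (edgeR log2 fold change -0.31 ± 0.12, adjusted p = 0.217). Its level was 19.3, 18.3 and 16.1 CPM in knockdown and 19.6, 19.0 and 16.2 CPM in control_3NC, so control_5NC was again the high group.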

How the data were processed

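RNA was sequenced from total RNA of 12 testis libraries, and the genome build is mm10 per the submitters' processing notes; the sources used here name no aligner, counter, annotation or strandedness. The authors deposited estimated counts per gene, of which 88.2% are whole, and per-length values whose header names no unit and which were treated as RPKM, per the file headers and their size. Columns of 9 other samples (18 columns) were not used. Counts were rounded and tested with edgeR 4.0.16 (quasi-likelihood F-test, TMM scaling, minimum count 10 by group, R 4.3.3) in 1 model of all 12 libraries, with Benjamini-Hochberg adjustment over 16395 genes, threshold 0.05. CPM values are scaled by TMM. DESeq2 1.42.0 and limma 3.58.1 (voom) were alternatives, with total-count scaling, no filter, a replicate block, only the libraries compared, a term for low totals and each library left out. The script was tested on simulated data. No library was a copy of another of its group (chi-square over its degrees of freedom, 3.04 to 39.04). Of the 30 members, 29 passed the filter and Inhba did not; 9 overlap another annotated gene, 6 of these on the opposite strand, and reads of such pairs cannot be told apart without strand. The members and gene lists were chosen with earlier results of these data known. All 30 members were named, with the focus on those with the 5 lowest p-values in each comparison. Genes of the other lists were named only in part. Counts are of reads, so intervals on counts cover counting error only.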

Additional observations from a re-analysis of the deposited data

How the results depend on the processing

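No member passed in any comparison under any setting, except that 1 passed with both constructs against both controls when control_3NC replicate 3 was left out (range over left-out libraries 0 to 1). That member was Rhox5, whose highest level was in the library left out. As given above, DESeq2 gave no adjusted p for some members in overexpression and in both constructs against both controls. For the 5 members with the lowest p in each comparison, 422 of 425 values under other settings kept direction and side of the threshold, 1 passed newly (Rhox5) and 2 changed sign, both Krt18 without the 4 libraries high in leukocyte or epididymis genes, at 0.32 in overexpression and 0.3 in the difference between constructs (that setting was chosen after seeing the data, and its lone control_5NC library is assumed to vary like the other groups). Over all 29 members tested, the sign turned under at least 1 other setting for 17 in overexpression and 9 in knockdown. With a log2 fold change of at least 0.1 either way these were Amh, Clu, Dhh, Drd4, Inha, Krt18, Nr5a1 and Wt1 in overexpression and Drd4, Fst, Gata4, Gdnf, Kitl, Krt18, Rhox8 and Serpina5 in knockdown. Counts of all genes called moved more. In overexpression against control_5NC the 78 genes became 163 with total counts, 742 with DESeq2 and 5 without the 4 libraries, and 5 to 217 leaving out 1 library. In knockdown against control_3NC the 3 became 23 with DESeq2, 0 with only the libraries compared, 0 without the 4, and 1 to 9. In control_5NC against control_3NC the 40 became 68 with total counts, 305 with DESeq2, 13 with limma-voom, 9 with only the libraries compared, 6 with the low-total term, 7 without the 4, and 7 to 126. The difference between constructs had 3, then 53 with DESeq2, 6 without the 4, and 3 to 12. Both constructs against both controls had 43, then 68 with total counts, 675 with DESeq2, 4 without the 4, and 6 to 300. The cause was not tested. Whether the replicate numbers pair the libraries cannot be told from these values, and the main model had no term for them. Same-numbered libraries of different groups correlated at -0.125 to 0.313, above 0.1 in 8 of 18 pairs. Pairs with different numbers correlated at -0.412 to 0.271, and 8 of 12 libraries correlated best with their own number. A replicate block gave 269, 6 and 386 genes in overexpression, the difference and both constructs, and called no member. With no low-count filter Inhba in control_5NC against control_3NC was at -1.60 ± 0.56. Counts were lowest for Inhba, and also low for Amh, Fst and Krt18.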

Other observations

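Some other genes of the Sertoli list, outside the 30, had larger differences that did not pass. For Pdgfa, Egr3 and Ptgds the libraries of control_5NC and control_3NC did not overlap. Control_5NC was the higher control for Pdgfa and the lower control for Egr3 and Ptgds. Pdgfa, a growth factor for peritubular cells, was at 11.9, 10.4 and 8.75 CPM in overexpression, against 19.8, 15.2 and 15.5 CPM in control_5NC, with a log2 fold change of -0.70 ± 0.15 (adjusted p = 0.0685). In knockdown Pdgfa was at 11.1, 10.7 and 10.9 CPM, against 14.9, 12.5 and 12 CPM in control_3NC. Each construct group lay wholly below its control, as did 10.3% of all genes in overexpression and 6.57% in knockdown. Egr3, an immediate early transcription factor, was at 32.3, 19.2 and 29.8 CPM in overexpression, against 17.2, 14.5 and 16.4 CPM in control_5NC. It was at 25.4, 31.2 and 29.9 CPM in knockdown, against 22.8, 20 and 25.3 CPM in control_3NC, and both constructs together gave 0.55 ± 0.12 (adjusted p = 0.0939). Ptgds, the prostaglandin D synthase, was at 111.0, 107.1 and 124.1 CPM in overexpression and 36.4, 57.6 and 48.6 CPM in control_5NC, and at 38.1, 58.3 and 112.5 CPM in knockdown and 62.0, 70.2 and 72.7 CPM in control_3NC. The difference between its fold changes was 1.24 ± 0.45 (adjusted p = 0.67).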
